A study of Mus musculus with 2 samples.

Results

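Of the 4441 single cells recovered from transplanted mouse hearts, 83 carried the annotation unconventional T cells in the deposited cell table, and these 83 cells are described here. Male Bm12 hearts, which carry the I-A Bm12 form of the MHC class II molecule that B6 CD4+ T cells recognise, were placed heterotopically into B6 recipients and collected at postoperative day 14. IL-33+ hearts were Il33+/+ Bm12, and IL-33- hearts were Il33-/- Bm12, a line made by crossing Bm12 onto the Il33-deficient background. All recipients were wild-type B6, so the deletion was confined to the graft and to the donor cells carried with it. There were 3 hearts in each group. Cells were released by collagenase and DNase, enriched on a density gradient, labelled heart by heart with hashtag antibodies and pooled into 1 library for droplet RNA-seq, in which a UMI (unique molecular identifier) marks 1 captured mRNA molecule. Levels are given as CPM, the UMIs of a gene scaled to the total of its cell, averaged over cells. The authors annotated cells from graph-based clusters and the expression of marker genes on a t-SNE map. Which genes decided this annotation is not given in the sources used here, so whether they include a gene that is compared between hearts below is not known.

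The heart of each of the 83 cells is known only from the oligonucleotide barcode on its hashtag antibody, and the 6 barcodes are therefore given here as the series description lists them, all 15 bases in capitals because the whole run is the barcode.
IL-33+ heart 1, TotalSeq-A0301: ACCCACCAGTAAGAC
IL-33+ heart 2, TotalSeq-A0302: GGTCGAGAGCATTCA
IL-33+ heart 3, TotalSeq-A0303: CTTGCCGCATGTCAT
IL-33- heart 4, TotalSeq-A0304: AAAGCATTCTTCACG
IL-33- heart 5, TotalSeq-A0305: CTTTGTCTTTGTGAG
IL-33- heart 6, TotalSeq-A0306: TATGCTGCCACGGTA
Each cell barcode was listed once, with 1 heart, which cannot show whether a droplet held cells of more than 1 heart. Hashtag counts per cell were not analysed here.

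The name unconventional T cell is used for lymphocytes that carry a T cell receptor but do not recognise peptides on classical MHC molecules. Gamma delta T cells express the Trdc and Tcrg chains in place of alpha and beta chains. Invariant NKT and MAIT cells carry a nearly fixed alpha chain and depend on the transcription factor Zbtb16 (PLZF). Macrophages, by contrast, are phagocytes that express complement C1q, apolipoprotein E and, in inflamed grafts, high MHC class II.

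The 83 cells were spread over all 6 hearts. IL-33+ hearts 1, 2 and 3 gave 25, 2 and 27 cells, and IL-33- hearts 4, 5 and 6 gave 18, 7 and 4 cells. As a share of all cells of a heart these were 2.89%, 0.870% and 1.62% in IL-33+ hearts and 2.15%, 2.46% and 0.716% in IL-33- hearts. Both groups spanned nearly the same range, at 1.79% ± 1.02 (SD, n = 3) in IL-33+ and 1.78% ± 0.933 (SD, n = 3) in IL-33- hearts, and a two-sided exact permutation test gave p = 1. With 3 hearts against 3 the smallest p this test can give is 0.1. Because IL-33+ heart 2 rests on 2 cells, with an exact binomial (Clopper-Pearson) 95% interval of 0.105% to 3.11% for its share, values of that heart are the least certain. All intervals of shares cover counting error only.

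The cells annotated unconventional T cells had a higher median number of UMIs than any other annotated type. It was 10175 UMIs per cell, with a range of 5619 to 14977, and their median number of detected genes was 3206. Macrophages had a median of 6606 UMIs and effector or effector memory T cells (annotated Tem/eff) had 5693, so the 83 cells held 1.54 and 1.79 times as many. The medians of the 6 hearts were 8730, 8980 and 10749 UMIs in IL-33+ and 9758, 11457 and 9578 UMIs in IL-33- hearts, which overlap (exact permutation test, two-sided, p = 0.5). In every heart the median was above that of both macrophages (6244 to 7122 UMIs) and Tem/eff cells (5128 to 6316 UMIs). The median share of mitochondrial UMIs was 3.86%, close to the 3.90% of macrophages.

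Genes of alpha beta T cells and genes of macrophages were both present, at levels between those of the matching types. Since the annotation was itself made from the expression of these cells, all levels by type are given as a description, without a test. The 7 genes of the T cell receptor complex (Cd3d, Cd3e, Cd3g, Cd247, Trac, Trbc1 and Trbc2) summed to 1060 CPM, against 3664 CPM in Tem/eff cells and 69.2 CPM in macrophages. Cd3e, the epsilon chain of the CD3 signalling complex (chr9:44998740-45009627, minus strand, GRCm38), was at 150 CPM with a UMI in 50 of 83 cells (60.2%), compared with 573 CPM in Tem/eff cells and 4.69 CPM in macrophages. Trac, the constant part of the alpha chain, was at 146 CPM with a UMI in 46 cells. Transcripts of the alpha beta T cell receptor were thus found in most of the cells.

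Among T cell surface and signalling genes, Cd28 was at 153 CPM, the kinase Lck at 98.3 CPM and Thy1 at 173 CPM. In Tem/eff cells the same genes stood at 547, 314 and 522 CPM. Of the 66 cells with UMIs of at least 2 receptor complex genes, 26 had Cd4 without Cd8a or Cd8b1, 9 had Cd8a or Cd8b1 without Cd4, 4 had both and 27 had neither. Cd4-bearing cells were thus the largest of the 3 sets in which a coreceptor was detected. Foxp3, the transcription factor of Tregs, was found in 12 cells, of which 10 also had UMIs of at least 2 macrophage genes. Ctla4, the inhibitory receptor, was at 301.8 CPM, and Gata3 at 78.5 CPM.

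Genes of the gamma delta chains were low, and receptor genes shared with NK cells were not. Trdc, the constant part of the delta chain, had a UMI in 5 of 83 cells (6.02%) and a mean of 13.2 CPM, below the 114 CPM of central memory T cells (annotated Tcm), the type with the highest level. Tcrg-C1, Tcrg-C2 and Tcrg-C4 ranged from 1.64 to 3.37 CPM. Sox13, Il17a, Il23r and Cd163l1, genes of interleukin-17-producing gamma delta cells, had no UMI in any of the 83 cells, which allows a share of up to 3.61% of cells with a UMI. Only 2 of the 83 cells had UMIs of at least 2 of 10 gamma delta genes, the variable segment Trdv4 among them. The 12 gamma delta genes summed to 28.7 CPM, close to the 27.6 CPM of Tem/eff cells.

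The 7 measured genes of the invariant NKT and MAIT list summed to 399 CPM, above both Tem/eff cells (195 CPM) and macrophages (150 CPM). Most of this sum came from NK receptor genes that NK cells express at a higher level, Klrk1 (119 CPM against 220 CPM in NK cells), Klrb1b (111 against 293 CPM) and Klrb1c (39.4 against 233 CPM), and from Klrd1 (81.1 CPM against 220 CPM in NKT cells). Zbtb16 was at 3.75 CPM, with a UMI in 3 of 83 cells, against 17.2 CPM in Tcm. The invariant alpha chain segments Trav11 and Trav1 were not analysed here, so an invariant receptor could not be looked for. The cells are referred to by their annotation only.

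NK cell genes were present in part of the cells. Gzma, a cytotoxic granule protease, was at 557 CPM with a UMI in 36 cells, against 6861 CPM in NK cells and 243 CPM in Tem/eff cells. Klrb1c, which encodes NK1.1, had a UMI in 15 cells, and Ncr1, the NK receptor NKp46, was at 5.54 CPM in 4 cells. Among the 17 cells with fewer than 2 receptor complex genes, 8 had UMIs of at least 2 of 5 NK receptor genes (Ncr1, Klrb1c, Klra8, Klra4 and Klre1). In all, 71 of the 83 cells (85.5%) combined at least 2 macrophage genes with at least 2 genes of the T cell receptor complex or 2 NK receptor genes.

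Macrophage genes were high. The 14 macrophage core genes summed to 5071 CPM, which is 56.3% of the level in macrophages (9013 CPM) and far above the 257 CPM of Tem/eff cells. Apoe, the lipid carrier apolipoprotein E (chr7:19696109-19699188, minus strand), was at 1073 CPM with a UMI in 60 of 83 cells (72.3%), compared with 2392 CPM and 71.1% in macrophages. Csf1r, the receptor for macrophage colony-stimulating factor, was at 186 CPM with a UMI in 59 cells, against 300.7 CPM in macrophages and 2.28 CPM in Tem/eff cells. C1qa, a chain of complement C1q, was at 702 CPM, Lyz2 (lysozyme) at 932 CPM and Adgre1 (F4/80) at 108 CPM. The 8 MHC class II genes summed to 67.1% of the macrophage level, 18779 against 27990 CPM, with H2-Aa at 3901 CPM and the invariant chain Cd74 at 8130 CPM.

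**Figure D1:**
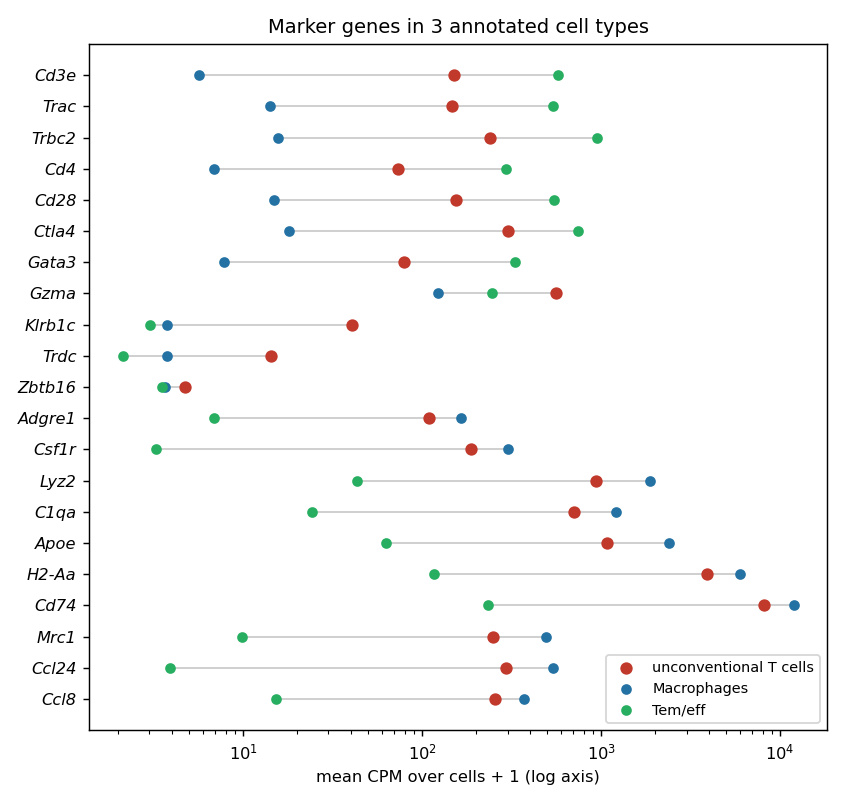
Mean CPM plus 1 on a log axis for 21 marker genes in the 83 cells annotated unconventional T cells (red), in macrophages (blue) and in Tem/eff cells (green), each point the mean over all cells of the type. Red points lie between blue and green for T cell receptor and macrophage genes, while Trdc and Zbtb16 are near the left end in all 3 types. For Gzma, Klrb1c, Trdc and Zbtb16 the red point is the highest of the 3.

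Markers of both kinds were found in the same cells. At least 2 receptor complex genes and at least 2 macrophage core genes had a UMI in 63 of 83 cells (75.9%, exact 95% interval 65.3% to 84.6%). A further 17 cells had macrophage genes with fewer than 2 receptor complex genes, 3 cells had receptor complex genes with fewer than 2 macrophage genes, and 0 cells lacked both. The median cell had 4 of the 7 receptor complex genes and 8 of the 14 macrophage genes. Without IL-33+ heart 2 the count was 61 of 81 cells (75.3%).

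The same count was lower in every other annotated type. It was 28.7% in Tem/eff cells, 23.1% in NKT cells and 6.06% in macrophages, and 0 of 154 monocytes met it. Requiring at least 3 genes of each list left 52 of the 83 cells (62.7%), against 9.17% of Tem/eff cells and 1.17% of macrophages. Since deeper cells can show more genes, each cell was also thinned to 5619 UMIs, the depth of the shallowest of the 83, which left out 0 of these cells, 153 of 429 macrophages and 154 of 327 Tem/eff cells. After thinning 62.7% of the annotated cells still had 2 genes of each list, compared with 27.7% of Tem/eff cells, 17.4% of NKT cells and 2.17% of macrophages. Shallower types had few cells of this depth, with 4 Tregs, 1 NK cell and 0 Trm-like cells, and could not be compared. Of those 4 Tregs, 3 (75%) had 2 genes of each list.

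Across hearts the share with both kinds of marker was 72.0%, 100% and 85.2% in IL-33+ hearts 1, 2 and 3. In IL-33- hearts 4, 5 and 6 it was 66.7%, 85.7% and 50%. The groups overlapped, with means of 85.7% ± 14.0 and 67.5% ± 17.9 (SD, n = 3 each; exact permutation test, two-sided, p = 0.3).

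**Figure D2:**
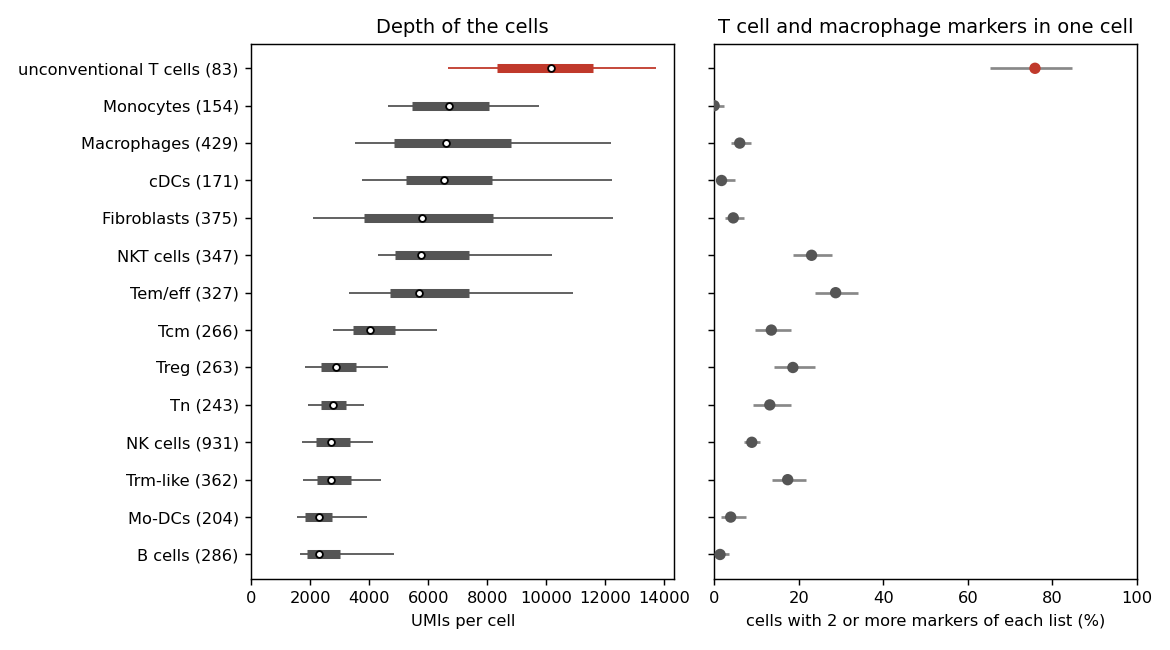
Left, UMIs per cell in each of the 14 annotated types, with the number of cells in brackets; thick bars span the 25th to 75th percentile, thin bars the 5th to 95th, and open points are medians. Right, the percentage of cells with a UMI of at least 2 T cell receptor complex genes and 2 macrophage core genes, with exact 95% intervals; the annotated unconventional T cells (red) are highest in both, at 10175 UMIs and 75.9%.

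The intermediate levels extended beyond the marker lists. In 210 genes with at least 100 CPM in macrophages and at least 10 times the Tem/eff level, the annotated unconventional T cells lay between both types for 206 genes, at a median of 63.8% of the macrophage level (interquartile range 55.5% to 72.2%). In the 105 genes with the reverse pattern they lay between both types for 104 genes, at a median of 31.8% of the Tem/eff level (26% to 42.2%). Monocytes, by comparison, stood at 87.4% and 2.20%, and NKT cells at 3.27% and 40.9%. Cells annotated Mo-DCs stood at 68.4% and 8.36%, and conventional dendritic cells at 33.8% and 7.91%. Tregs were at 5.18% and 97.3%, and NK cells at 5.09% and 24.2%. In single cells, the sum of the 210 macrophage genes was above the 95th percentile of Tem/eff cells in all 83, and the sum of the 105 Tem/eff genes was above the 95th percentile of macrophages in 77. By the choice of these limits, 5% of Tem/eff cells and of macrophages lie above the one set on their own type. Across the 83 cells the sums moved in opposite directions (Spearman's rho = -0.50), a description only, as both are parts of the same total and all cells come from 1 library.

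**Figure D3:**
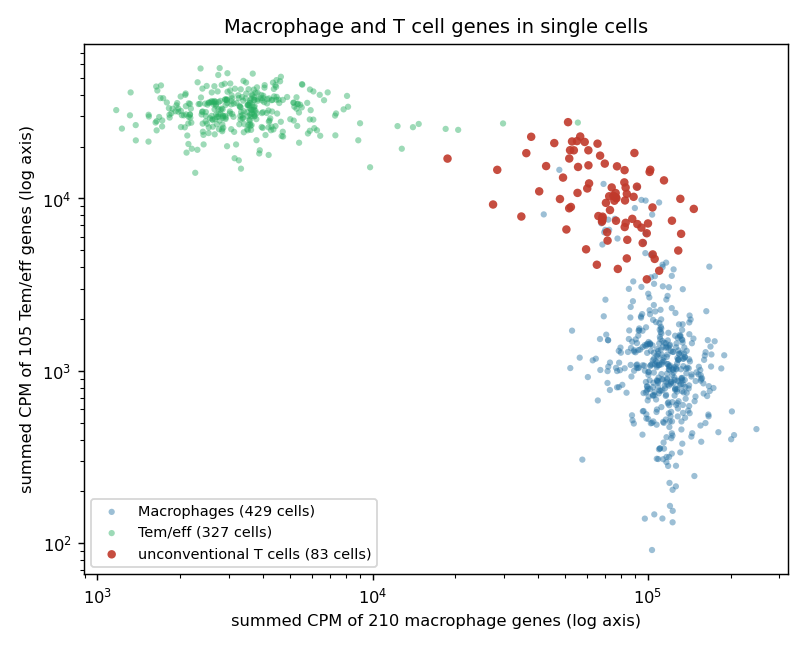
Each point is 1 cell, placed by the summed CPM of 210 genes higher in macrophages (horizontal, log axis) and of 105 genes higher in Tem/eff cells (vertical, log axis). The 83 annotated unconventional T cells (red) sit between the macrophages (blue) and the Tem/eff cells (green), high on both axes.

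Few genes were highest in these cells, and none by a wide margin. Among 3484 genes with at least 50 CPM in the 83 cells and a UMI in at least 4 hearts, 39 had their highest mean there, and 0 exceeded the next type by 1.5 times. The largest ratio was 1.32, for Lacc1, a macrophage enzyme of purine metabolism (55.9 against 42.4 CPM in Mo-DCs). Gpr65, a proton-sensing receptor, followed at 1.31 times the level of NK cells, and the DNA methyltransferase gene Dnmt3a at 1.30 times that of Mo-DCs. The other 12 of the 15 genes with the highest ratios, among them Pstpip1, Ifih1, Slamf9 and Isg15, lay between 1.11 and 1.26. In each of the other 13 types at least 1 gene of 50 CPM or more exceeded the next type by 2 times, with 15 such genes in Tem/eff cells, 3 in macrophages and 649 in fibroblasts.

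As a description of the whole profile, the mean levels of 9296 genes were fitted as a sum of the other 13 types' means with weights of 0 or more. Macrophages took 54.4% of the weight and all macrophage, monocyte and dendritic types 63.2%. T and NK types took 36.8% and B cells and fibroblasts 0%. Fitted heart by heart, the macrophage weight ran from 41.2% to 72.2% and was the largest in all 6 hearts. The division among T and NK types varied between hearts, with Tregs at 0% to 13.4%, Tem/eff cells at 2.29% to 30.4% and Trm-like cells at 0% to 11.6%, and B cells took 7.04% in IL-33- heart 5. The fitted sum was within 2-fold of the measured level, each plus 10 CPM, for all but 33 genes, 2 of them higher and 31 lower in the cells than in the sum.

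A doublet score, which compares each cell with simulated pairs of cells of the same data, had a median of 0.151 in the 83 cells and of at most 0.067 in the other types. Among the 266 cells with the highest scores, 6% of all cells, 51 were annotated unconventional T cells, that is 61.4% of the type against 4.20% of macrophages and 14.1% of NKT cells. The score's automatic threshold marked 3 cells of the whole data set, which the authors had already filtered on counts to take out likely doublets. Of the 32 annotated cells outside the highest scores, 24 (75%) had at least 2 genes of each list. What part droplets holding more than 1 cell have in these profiles was not tested.

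Genes of further cell types were present at lower levels. The 5 B cell genes summed to 203 CPM, against 91.7 CPM in macrophages and 91.1 CPM in Tem/eff cells, and 156 CPM of this was Ighm, the immunoglobulin mu chain. Over hearts this sum ran from 0 to 440 CPM, highest in IL-33+ heart 3, and 3 cells had UMIs of at least 2 of the other 4 B cell genes. The 8 neutrophil genes summed to 153 CPM against 225 CPM in macrophages and 14.5 CPM in Tem/eff cells, ranged from 0 to 498 CPM with the highest value in IL-33- heart 4, and had Ly6g and Cxcr2 at 0. The cardiomyocyte genes summed to 2.95 CPM with 5 of 6 at 0, and fibroblast genes to 538 CPM against 1025 CPM in macrophages. The part of these cell types in the results was not tested. Of 18 cell cycle genes, Mki67 was at 35.8 CPM and Top2a at 25.6 CPM, compared with 104 and 218 CPM in Tem/eff cells.

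The comparison of graft genotypes asked which genes of these cells differed with donor IL-33. IL-33 is an alarmin released by stromal cells, and its receptor ST2 (Il1rl1) is carried by Tregs, innate lymphoid cells and mast cells. In 7356 genes with at least 10 UMIs and a UMI in at least 3 hearts, the log2 of the mean CPM of a heart plus 10 was compared between groups with limma, and a gene was called where its p, adjusted after Benjamini and Hochberg over all of them, was at most 0.05. The chemokine gene Ccl24 was called higher in IL-33+ hearts and the chemokine gene Ccl8 lower, that is 2 of 7356 genes (0.0272%), 1 in each direction (0.0136% each). In all, 334 genes, these 2 included, had an unadjusted p under 0.05. Across all genes tested the median difference was -0.08 on the log2 scale. A mean over cells does not by itself separate fewer cells with a transcript from less transcript per cell.

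Ccl24 encodes eotaxin-2, which attracts eosinophils through CCR3 and is made by alternatively activated macrophages (chr5:135569937-135573049, minus strand). It was at 815, 140 and 140 CPM in IL-33+ hearts 1, 2 and 3, and no UMI was found in IL-33- hearts 4, 5 and 6. The groups did not overlap, as for 3.68% of the 7356 genes in this direction. For Ccl24 this was fixed by the filter, since a gene without a UMI in the IL-33- hearts could pass it only with a UMI in all 3 IL-33+ hearts. The fitted log2 difference was 4.72 ± 0.79 (SE, limma adjusted p = 0.0089). The same filter limits this p, since Ccl24 could be tested only through its level in the IL-33+ hearts. The limma adjusted p was 0.91 without trend and 0.94 with a pseudocount of 1 CPM. Over pooled cells there were 258 Ccl24 UMIs among 536946 in the IL-33+ group and 0 among 295929 in the IL-33- group. Setting 3 UMIs in place of the 0 gave a ratio of 47.4. Without IL-33+ heart 1, which held 222 of these UMIs, the ratio was 12, and without IL-33+ heart 3 it was 85.5. These ratios are not lower limits and are no test between hearts, because the UMIs were clustered in few cells.

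The Ccl24 UMIs came from 16 of the 83 cells, 12 of them in IL-33+ heart 1, 1 in heart 2 and 3 in heart 3. A single cell held 91 of the 258 UMIs (35.3%), and without it the difference was 4.55 (adjusted p = 0.017). All 16 cells had at least 2 macrophage genes and 12 also had at least 2 receptor complex genes. Lymphocyte types had few cells with a Ccl24 UMI, from 0.644% of NK cells to 2.88% of NKT cells, with 1.53% of Tem/eff cells. These types were shallower than the 83 cells, with medians of 2711 UMIs in NK cells and 5741 UMIs in NKT cells. Without IL-33+ heart 1 the call was lost (log2 difference 3.90, adjusted p = 0.057, with the genes kept that passed the filter over all hearts).

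Ccl8 encodes MCP-2, a CC chemokine made by macrophages that attracts monocytes and T cells (chr11:82115185-82116799, plus strand). Its levels were 221, 0 and 20.8 CPM in IL-33+ hearts 1, 2 and 3, and 200, 1383 and 449 CPM in IL-33- hearts 4, 5 and 6. The groups overlapped, since IL-33+ heart 1 was above IL-33- heart 4. The log2 difference was -3.63 ± 0.70 (SE, limma adjusted p = 0.048). Only 13 of the 83 cells carried a Ccl8 UMI, all 13 with at least 2 macrophage genes, and a single cell of IL-33- heart 5 held 105 of the 217 UMIs (48.4%). Without that cell the difference was -2.34 and not called (adjusted p = 0.89), and it was also not called without IL-33+ heart 2 (-2.60, adjusted p = 0.82), IL-33- heart 5 (-2.90, adjusted p = 0.29) or IL-33- heart 6 (-3.71, adjusted p = 0.68). Ccl24 and Ccl8 were found together in 4 cells.

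The macrophages of the same hearts showed Ccl24 at 1041, 757 and 151 CPM in IL-33+ hearts 1, 2 and 3 and at 22.4, 151 and 68.5 CPM in IL-33- hearts 4, 5 and 6. Their Ccl8 was at 274, 233 and 828 CPM in IL-33+ and 198, 368 and 31.6 CPM in IL-33- hearts. Neither gene was called in macrophages (limma adjusted p = 0.24 and 0.99). When the group difference of the annotated unconventional T cells was compared with that of macrophages within hearts, 0 of 7254 genes passed (0%), and 228 had an unadjusted p under 0.05. The difference between types was 1.96 ± 1.54 for Ccl24 and -5.01 ± 1.32 for Ccl8 on the log2 scale (SE, limma, adjusted p = 0.97 for both). Against Tem/eff cells 0 of 7005 genes passed (0%) and 249 had an unadjusted p under 0.05, with -3.02 ± 1.24 for Ccl8 (adjusted p = 0.95). In Mo-DCs, as the annotation names them, Ccl8 was called in the opposite direction (3.36 ± 0.63, SE, limma adjusted p = 0.00031). Their levels were 888, 1442 and 283 CPM in IL-33+ and 23.1, 0 and 1062 CPM in IL-33- hearts. These groups overlapped, since IL-33- heart 6 was above IL-33+ hearts 1 and 3, and the level of IL-33+ heart 2 came from 1 cell. The difference between Mo-DCs and the annotated unconventional T cells was not tested.

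The levels of the lists that mark the composition of the cells overlapped between groups. The receptor complex genes summed to 599, 2111 and 1269 CPM in IL-33+ hearts and to 1512, 820 and 399 CPM in IL-33- hearts. The macrophage core genes summed to 3793, 4741 and 5536 CPM in IL-33+ and 5656, 6999 and 4077 CPM in IL-33- hearts. Of these lists 0 of 7 and 0 of 13 tested genes were called in either direction. Haemoglobin, mast and platelet genes stood out in IL-33+ heart 1, at 2374 CPM against 0 to 264 CPM in the others. They were also found in other types of that heart, at 848 CPM in macrophages and 700 CPM in Tem/eff cells. In both of those types IL-33- heart 4 was highest, at 2231 and 1752 CPM. The part of any of these in the differences was not tested.

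**Figure D4:**
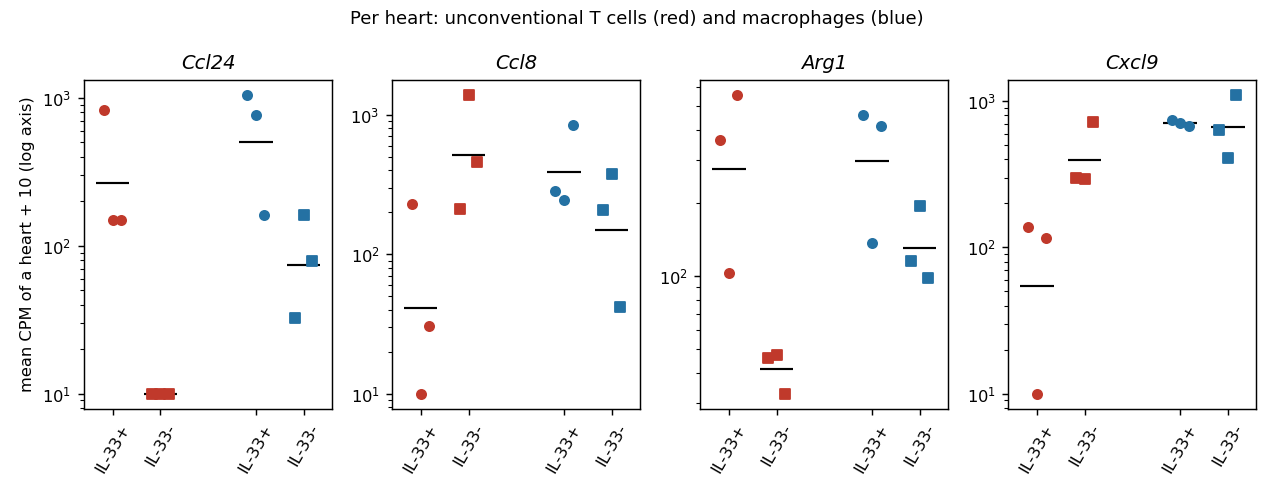
Mean CPM of a heart plus 10 (log axis) for Ccl24, Ccl8, Arg1 and Cxcl9 in the annotated unconventional T cells (red) and in macrophages (blue); each point is 1 heart, circles IL-33+ and squares IL-33-, and lines are means on the log scale. Ccl24 is at 0 CPM, the lowest plotted level, in the 3 IL-33- hearts of the annotated cells, and Cxcl9 and Ccl8 are at 0 CPM in IL-33+ heart 2.

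Genes of alternative macrophage activation were mixed. The list was drawn up with the study's own choice of genes from these samples in view, so its direction is not independent evidence. Of 13 tested genes, Ccl24 was called higher, Ccl8 lower and 11 were not called, with a list median of 0.22 against -0.08 for all genes. Arg1 (arginase 1), which removes arginine, was at 352, 93.2 and 548 CPM in IL-33+ and 35.9, 37.4 and 22.8 CPM in IL-33- hearts. Its groups did not overlap, yet the gene was not called (log2 difference 2.73 ± 0.57, SE, limma adjusted p = 0.099). An Arg1 UMI was found in 11 of 25, 1 of 2 and 17 of 27 cells in IL-33+ hearts. In IL-33- hearts it was found in 1 of 18, 1 of 7 and 1 of 4 cells. The mannose receptor gene Mrc1 (339, 346 and 170 CPM against 241, 137 and 369 CPM) and Retnla (211, 0 and 106 CPM against 697, 0 and 56.8 CPM) overlapped. Mgl2, a lectin, was at 111, 484 and 38.6 CPM in IL-33+ and 64.6, 41.1 and 0 CPM in IL-33- hearts.

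Among 6 tested CXC chemokine genes 0 were called. Cxcl9, an interferon-gamma-induced ligand of CXCR3, was at 129, 0 and 106 CPM in IL-33+ hearts and 287, 283 and 715 CPM in IL-33- hearts (-2.87 ± 0.64, SE, limma adjusted p = 0.15). A Cxcl9 UMI was found in 9 of 25, 0 of 2 and 7 of 27 cells against 9 of 18, 4 of 7 and 2 of 4 cells. Without IL-33+ heart 2 the log2 difference was -1.65. Non-overlap in this lower direction was seen for 5.78% of all genes tested. Cxcl2, a chemokine for neutrophils, was at 1850 CPM with a UMI in 63 cells, and ranged from 549 to 3854 CPM in IL-33+ and from 440 to 1295 CPM in IL-33- hearts. Of 10 tested CC chemokine genes, Ccl24 and Ccl8 were the 2 called. Ccl5, made by cytotoxic lymphocytes, was at 539 to 1498 CPM in the 6 hearts without a split by group.

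MHC class II genes were lower in IL-33+ hearts by sum, without a called gene. The 8 genes summed to 19049, 20956 and 11811 CPM in IL-33+ hearts and to 23296, 28893 and 25018 CPM in IL-33- hearts, and the groups did not overlap. A two-sided exact permutation test of this sum gave p = 0.1, the smallest it can give with these hearts. H2-Aa, the alpha chain of I-A, was at 4082, 4840 and 1941 CPM in IL-33+ and 4958, 6602 and 6043 CPM in IL-33- hearts (-0.79 ± 0.24, SE, limma adjusted p = 0.78). The same sum in macrophages was 28662, 37136 and 22793 CPM in IL-33+ and 34259, 25744 and 25033 CPM in IL-33- hearts and overlapped. Of the 8 genes, H2-Aa and Cd74 had groups that did not overlap, as for 5.78% of all genes tested in this direction. H2-Ab1 and H2-Eb1 overlapped narrowly, and H2-DMa, H2-DMb1 and H2-DMb2 had positive differences.

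**Figure D5:**
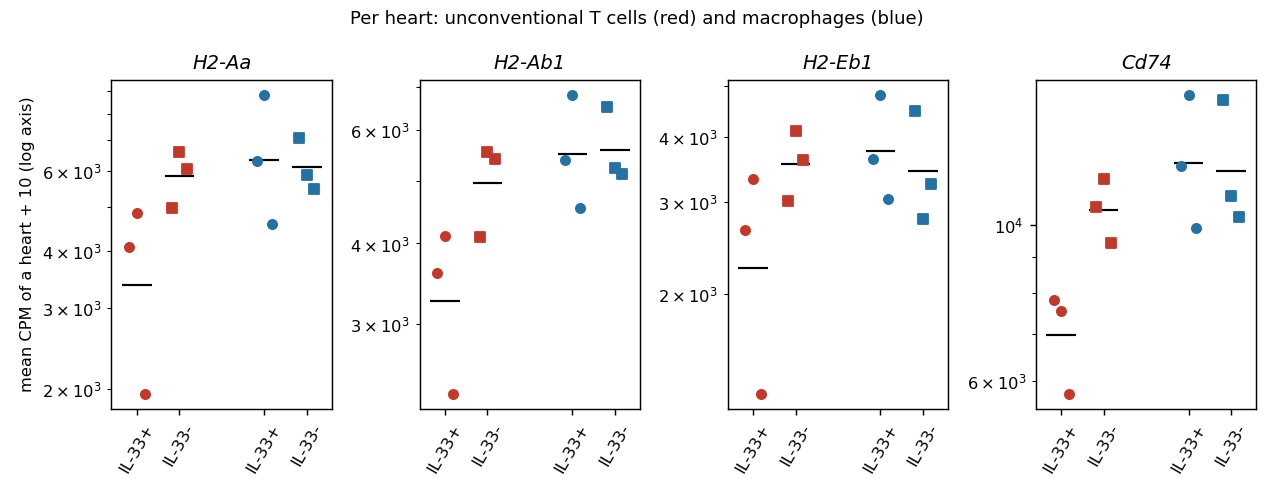
Mean CPM of a heart plus 10 (log axis) for the MHC class II genes H2-Aa, H2-Ab1 and H2-Eb1 and the invariant chain gene Cd74 in the annotated unconventional T cells (red) and macrophages (blue); circles are IL-33+ hearts, squares IL-33- hearts and lines means on the log scale. In the annotated cells H2-Aa and Cd74 are lower in all IL-33+ hearts, while the macrophage groups overlap for all 4 genes.

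Genes with at least a 2-fold difference and groups that did not overlap numbered 160 higher and 268 lower among the 7356 tested. Ccl24 and Arg1 were among the former and Cxcl9 among the latter. Non-overlap of any size was seen for 3.68% of all genes tested in the higher and 5.78% in the lower direction. By smallest p, the 10 higher included Ccl24, Arg1, Specc1l, Gda, Phlda1, Chd2, Xdh, Bin2 and Nr4a1. Nr4a1, an immediate early gene of antigen receptor signalling that myeloid cells also express, was at 229, 347 and 526 CPM against 176, 150 and 129 CPM. The 10 lower were Cxcl9, Mmp14, Tlr2, Marcksl1, Marcks, Ppp4r2, Pltp, Cd63, Selenop and Chil1. Each of these 10 had 0 or 1 UMI in IL-33+ heart 2, which rests on 2 cells. Without that heart all 10 log2 differences were smaller, from -2.52 for Chil1 to -0.93 for Marcks, with Tlr2 at -1.22. Tlr2, a receptor for bacterial lipopeptides, was at 134, 0 and 150 CPM in IL-33+ and 250, 335 and 478 CPM in IL-33- hearts (-2.52 ± 0.65, SE, limma adjusted p = 0.43). Mmp14, a membrane-bound matrix metalloproteinase, was at 77.5, 0 and 56.1 CPM against 141, 222 and 472 CPM. Adjusted p of these named genes other than Ccl24 and Arg1 lay between 0.15 and 0.91.

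Lysosome and lipid genes, which phagocytes use to digest what they take up, were not called either (0 of 15). Spp1, the gene of the matrix protein osteopontin, was at 107, 7341 and 1174 CPM in IL-33+ and 162, 159 and 102 CPM in IL-33- hearts, so that IL-33+ heart 2 with its 2 cells set its mean. Pltp and Abca1, which move phospholipids and cholesterol, were lower in all IL-33+ hearts and at 0 CPM in IL-33+ heart 2. The 8 monocyte genes had a list median of 0.98, with Fn1 (fibronectin) at 598, 256 and 538 CPM in IL-33+ and 383, 14.9 and 125 CPM in IL-33- hearts, and 0 of 8 were called.

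Chemokine receptor genes had negative differences for 7 of 8 tested genes, with a median of -0.69 and 0 called. Ccr7, which guides T cells and dendritic cells to lymph nodes, was at 189, 0 and 163 CPM in IL-33+ and 541, 90.8 and 324 CPM in IL-33- hearts and overlapped. The exception was Cxcr4, at 597, 1418 and 1701 CPM against 749, 563 and 757 CPM. IL-33+ heart 2, with its 2 cells, was at 0 CPM for Ccr7, Cxcr3 and Cx3cr1. Of 13 tested interferon response genes, 6 were positive, 7 negative and 0 called.

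Effector T cell genes were not called. Ifng was at 117, 93.2 and 31.2 CPM in IL-33+ hearts and 28.6, 0 and 0 CPM in IL-33- hearts, with a UMI in 20 cells. Xcl1, a ligand for cross-presenting dendritic cells, was at 133, 209 and 207 CPM in IL-33+ and 107, 0 and 95.2 CPM in IL-33- hearts. Groups did not overlap for either gene, as for 3.68% of all genes in this direction. Of 10 tested effector genes 0, of 8 tested Treg genes 0 and of 11 tested fate factors 0 were called.

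In the IL-33 pathway itself, Il33 had a UMI in 1 of the 83 cells. Il1rl1, the ST2 receptor, was at 15.6, 0 and 31.6 CPM in IL-33+ hearts and 6.67, 0 and 0 CPM in IL-33- hearts, with a UMI in 7 cells, far below the 477 CPM of Tregs. Areg, the growth factor amphiregulin, was at 37.7, 140 and 68.2 CPM in IL-33+ and 42.2, 10.6 and 0 CPM in IL-33- hearts, and was not called. The type 2 cytokine genes Il13 and Il5 had no UMI.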

How the data were processed

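Single-cell RNA-seq of immune cells from 6 Bm12 heart grafts (1 hashtagged pool) was analysed. Per the study's methods and the submitters' processing notes, the authors used Cell Ranger with the mm10 build and Partek Flow 10.0.23.0425, filtered cells on depth, detected genes and mitochondrial reads, and the deposited values are log2(CPM + 1), with a cell type for each cell. How hashtags were assigned is not given in the sources used here. UMIs per cell in the deposited data ran from 1500 to 14977. Deposited log2 values were returned to CPM, and low values were whole UMIs within 0.05 for 99.9% of entries. A symbol with several entries (22 symbols) holds their mean.

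The 83 cells were averaged per heart, the replicate. Genes with at least 10 UMIs and a UMI in at least 3 hearts were fitted with limma 3.58.1 (R 4.3.3, eBayes with trend) on log2(mean CPM + 10), which understates changes of low genes, and called at an adjusted p of 0.05 or less. Shares, depth and list sums were compared by exact permutation tests, and of the list sums only the p of MHC class II is reported here. Doublet scores came from Scrublet in scanpy 1.11.5, with no cell removed in the main analysis. The fit was also run on data simulated from a common profile, without the differences between cells seen here, so that run gives these calls no support. Named genes were those of the gene lists, every called gene, the 10 genes in each direction with smallest p among those with 2-fold, non-overlapping groups, and the 15 with the highest ratio over the next type. The cells, lists and tests were chosen with earlier results of these data known. Nothing states that hearts were processed in separate batches. Gene coordinates are GENCODE vM21 on GRCm38 (mm10). Some genes that the rules name are not reported here.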

Additional observations from a re-analysis of the deposited data

How the results depend on the processing

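No paired analysis was possible because the hearts are numbered 1 to 6 without a shared number between groups. The count of 2 called genes changed with most settings and depends on the model. It was 0 with a pseudocount of 1 CPM, with limma without trend, with median-of-ratios scaling and with a filter of 20 UMIs and 4 hearts. It was 1 with UMIs summed per heart, with limma-voom, and without the cell with the most Ccl24 or the most Ccl8 UMIs, the last 2 chosen after seeing the data. It was 18 with a pseudocount of 50 CPM, 23 without a low-value filter, 11 with the robust option, 24 with weights by cells and 5 in cells with both kinds of marker. Leaving out 1 heart gave 1 to 70 calls, the highest without IL-33+ heart 1, and with the genes kept that passed over all hearts, a setting added after seeing the data, it gave 66, 3 and 49 without IL-33+ hearts 1, 2 and 3 and 14, 7 and 1 without IL-33- hearts 4, 5 and 6. The cause was not tested. Ccl24 was called in 16 of the 21 alternatives that could give a value (adjusted p 2e-14 to 0.94). Its direction was the same in all 21, which gives no support, since the IL-33- hearts held no Ccl24 UMI that could turn it. Ccl24 did not pass the filter when that was reapplied without any 1 of the IL-33+ hearts, with the stricter filter or without the highest doublet scores. With the genes kept, its difference was 3.90 to 5.14 without an IL-33+ heart. Ccl8 kept its direction in all 26 and was called in 10 (adjusted p 1.96e-13 to 0.96). Counts of 0 against macrophages and Tem/eff cells held in all 12 alternatives each. The difference in the share of cells (0.015 percentage points) turned to -1.73 with macrophages plus annotated cells as denominator and ranged from -0.53 to 0.48 over hearts left out. The differences in co-detection (9.54 to 27.4 percentage points) and in median UMIs (-1410 to -182) kept their sign over hearts left out and all other settings run. With 2 to 27 cells per heart, genes in few cells rest on few UMIs.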
